A study of Mus musculus with 4 samples.

Results

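The genes described are 35 mouse genes of lipid synthesis and milk fat secretion, chosen by symbol from the 52636 genes that the 4 count matrices list. They comprise 20 genes of cholesterol synthesis and its regulation, 9 of fatty acid synthesis, elongation and desaturation, and 6 of milk fat secretion, and all 35 symbols were found. UMIs of 3' transcript ends were counted per cell (10x Genomics v3.1 chemistry) in EpCAM+ cells sorted from mammary glands. The 4 libraries were Esr1 Y541S mice given giredestrant, Esr1 Y541S mice given vehicle, wild-type (WT) mice given giredestrant, and WT mice given vehicle. Y541S is a point mutation in the ligand-binding domain of the estrogen receptor that Esr1 encodes, and giredestrant is an oral antagonist and degrader of that receptor. Giredestrant was given by mouth at 30 mg/kg once a day for 4 days, and vehicle (MCT) on the same schedule. All mice, the vehicle-treated ones included, were 6 months old and carried implanted pellets of estradiol and progesterone, so none of the 4 groups is a group without added hormone.

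Each group is 1 library of an unstated number of animals. Differences between libraries therefore have no replicate check, no test and no p-value, and every interval below is an exact 95% interval that covers counting error only. PCR copies were already collapsed by molecular identifiers (UMIs). The 4 comparisons (giredestrant over vehicle in each genotype, Y541S over WT under each treatment) share libraries, so a single library that stands apart enters 2 of them.

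Cholesterol is made from acetyl-CoA through mevalonate to isoprenoid units, then through squalene and lanosterol to the sterol itself. The transcription factor SREBP-2 (gene Srebf2) drives these enzymes and INSIG1 holds its precursor in the endoplasmic reticulum when sterol is plentiful, while SREBP-1 (Srebf1) drives fatty acid synthesis. In the lactating mammary gland the secretory alveolar cells switch on fatty acid synthesis, the thioesterase OLAH ends chains early to give the medium-chain fatty acids typical of milk, and lipid droplets bud from the cell wrapped in a membrane that holds butyrophilin (Btn1a1), xanthine oxidoreductase (Xdh) and perilipin-2 (Plin2).

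Promoter letters are shown for genes on which the comparisons turn, since several members of the same pathway moved in opposite directions in the same cell class. RefSeq (GRCm38.p6) promoters were matched for 25 of the 35 members, with 30 promoters among them. Each sequence below is the 150 bases before the start, 5′ to 3′ on the gene's own strand. Hmgcs1 makes HMG-CoA, Idi1 isomerises isopentenyl diphosphate, Msmo1 removes methyl groups from sterols, Insig1 retains SREBP, and Thrsp is a lipogenic regulator of the mammary gland. Capitals mark matches, on either strand, to the sterol regulatory element TCACNCCAC, the E-box CACGTG or the CCAAT box (ATTGG on the other strand). The stretches are chr13:119690201-119690350 for Hmgcs1, chr13:8885456-8885605 for Idi1 and chr5:28071262-28071411 for Insig1 on the plus strand, and chr8:64733579-64733728 for Msmo1 and chr7:97417551-97417700 for Thrsp on the minus strand.
Hmgcs1: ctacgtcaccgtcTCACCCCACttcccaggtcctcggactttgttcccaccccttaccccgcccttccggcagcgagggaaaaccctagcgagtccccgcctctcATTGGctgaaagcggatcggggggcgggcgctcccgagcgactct
Idi1: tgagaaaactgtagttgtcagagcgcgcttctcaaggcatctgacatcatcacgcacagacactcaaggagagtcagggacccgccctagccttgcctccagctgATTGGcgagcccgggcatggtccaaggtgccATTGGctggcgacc
Msmo1: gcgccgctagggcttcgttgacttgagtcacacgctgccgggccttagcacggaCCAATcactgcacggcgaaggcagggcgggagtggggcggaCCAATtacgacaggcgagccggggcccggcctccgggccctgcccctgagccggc
Insig1: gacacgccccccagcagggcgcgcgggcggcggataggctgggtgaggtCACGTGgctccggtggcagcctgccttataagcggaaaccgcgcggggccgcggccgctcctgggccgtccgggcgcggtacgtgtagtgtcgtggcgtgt
Thrsp: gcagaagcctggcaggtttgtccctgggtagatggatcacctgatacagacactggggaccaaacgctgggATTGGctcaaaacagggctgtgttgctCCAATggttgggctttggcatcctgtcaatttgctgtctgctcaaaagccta
Over the whole window of 250 bases before to 50 bases after the start, the sterol regulatory element was found in the promoter of 1 member, Hmgcs1 (3.33% of the members' promoters), against 1.24% of all 32851 promoters in the table. The E-box was found in 6 members, Dhcr7, Elovl5, Hsd17b7, Insig1, Plin2 and Sc5d, which is 20% of the members' promoters against 7.15% of all. The CCAAT box was found in 20 members, 70% of their promoters against 37.4%, and the GC box GGGCGG in 18 members, 66.7% of their promoters against 35.7%. Motifs were counted separately whether or not they overlapped. Neither the STAT5 motif TTCNNNGAA (8.30% of all promoters) nor the estrogen response element (GGTCA, 3 bases of any kind and TGACC; 0.07%) was found in these windows of the members. A match describes letters and not a bound site, and its absence concerns only these windows.

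The libraries differed in depth and in the cells they held, which touches every value below. After filtering, 8622 cells remained of Y541S with giredestrant, 7217 of Y541S with vehicle, 3029 of WT with giredestrant and 7082 of WT with vehicle, and their totals before filtering were between 70781982 and 132660456 UMIs. Cells were assigned to classes by gate genes in UMIs per 10000 of the cell: hormone-sensing (Esr1, Prlr, Areg and Foxa1 together at 10 or more), secretory (Wfdc18, Csn3, Elf5 and Kit at 10 or more) and basal (Acta2, Myh11, Mylk and Tagln at 20 or more). A cell was counted only where it met 1 of these gates, and secretory cells were split into casein-high and casein-low at 20 UMIs of Csn1s1, Csn1s2a and Csn2. Although the labels call the source mature luminal cells, 3641, 2951, 998 and 4832 cells met the basal gate in Y541S with giredestrant, Y541S with vehicle, WT with giredestrant and WT with vehicle, and the basal check genes Krt5, Krt14, Trp63, Oxtr and Cnn1 summed to 4134 to 4877 CPM in them. There were 2479, 2096, 1043 and 642 hormone-sensing cells in the same libraries, and 456, 1542, 607 and 675 casein-low secretory cells. Casein-high cells were found almost entirely in Y541S with giredestrant, with 874 cells there, 11 in Y541S with vehicle, 0 in WT with giredestrant and 5 in WT with vehicle.

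Median depth was lowest in Y541S with giredestrant in each of these classes. Hormone-sensing cells had a median of 8626 UMIs with giredestrant and 25121 with vehicle in Y541S, and 29614 with giredestrant and 28757.5 with vehicle in WT. The hormone-sensing check genes outside the gate were Pgr, Cited1, Prom1 and Ly6a. They summed to 431 to 1630 CPM (UMIs of a gene per 1000000 UMIs of the class in a library) in hormone-sensing cells. In basal cells they summed to 17.5 to 21.4 CPM. The secretory check genes (Lalba, Wap, Trf, Cd14 and Aldh1a3) summed to 1305 to 1490 CPM in casein-low cells. They summed to 25.1 to 151 CPM in hormone-sensing cells and 165 to 484 CPM in basal cells. Each class thus held most of the check genes of its name, and other classes held some of them. The gate genes themselves differed between libraries, with 2610 CPM of Areg, an estrogen-responsive growth factor, in hormone-sensing cells with giredestrant and 3014 CPM with vehicle in Y541S, and 2654 CPM with giredestrant and 1745 CPM with vehicle in WT. Which cells enter the class may move with them, and the part of this in the results was not tested. Adipocytes, which use many of the same lipid genes, left little trace. Adipoq and Lep were at 0 UMIs in hormone-sensing and secretory cells of every library, and Adipoq had 0 to 5 UMIs in basal cells. The 8 adipocyte markers summed to 1.07 to 5.81 CPM in hormone-sensing cells and 13.2 to 67.2 CPM in basal cells, nearly all Fabp4. In casein-low secretory cells they summed to 3.36 to 21.3 CPM.

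Levels are CPM of the UMIs summed over the cells of a class. Differences are log2 ratios relative to the median gene of the comparison (over genes with 20 or more UMIs in both libraries together), and "higher" or "lower" is used where they passed 1.5-fold. Each is followed by its 95% interval. In hormone-sensing cells this median gene lay 0.28 above equal CPM on the log2 scale for giredestrant over vehicle in Y541S, 0.43 above it in WT, 0.12 above it for Y541S over WT with vehicle, and 0.05 below it with giredestrant. In bulk sums over a class, more cells expressing a gene and more RNA per cell cannot be told apart.

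The cell classes differed in which lipid genes they held in every library. Casein-low secretory cells were above every library of both other classes for 9 of the 35 members, against 7.3% of all genes, and below them for 0 members, against 3.46%. These 9 were the sterol genes Hsd17b7, Dhcr7 and Stard4, acetyl-CoA carboxylase (Acaca), the desaturases Scd1, Fads1 and Fads2, and the milk fat genes Btn1a1 and Thrsp. Acaca, which commits carbon to fatty acid synthesis, lay between 118 and 122 CPM in casein-low cells. It lay between 90.6 and 106 CPM in basal cells and between 38.2 and 65.7 CPM in hormone-sensing cells. Scd1, which introduces the first double bond into saturated chains, lay between 34.3 and 106 CPM in casein-low cells. Fads1 and Fads2, the desaturases of polyunsaturated chains, lay between 35.1 and 55.5 CPM and between 15.9 and 27.9 CPM in casein-low cells.

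Hormone-sensing cells were above both other classes in every library for 2 members, squalene epoxidase (Sqle, 30.3 to 40.5 CPM) and Scd2 (39.4 to 78.8 CPM), against 7.09% of all genes. They were below both for 5 members, Insig1, Acaca, Fads1, Fads2 and Xdh, against 5.87% of all genes, with Xdh between 2.88 and 9.74 CPM. Basal cells were below both luminal classes in every library for 11 members, against 11% of all genes, and above both for 0, against 10.5%. These 11 were Mvd, Idi1, Fdps, Lss, Msmo1, Nsdhl, Hsd17b7, Sc5d and Dhcr7, all enzymes of cholesterol synthesis, together with Srebf2 and ATP-citrate lyase (Acly), which makes cytosolic acetyl-CoA. The summed level of the 20 cholesterol genes was 366 CPM with giredestrant and 369 CPM with vehicle in Y541S hormone-sensing cells, and 537 CPM with giredestrant and 435 CPM with vehicle in WT ones. The same sum in casein-low cells lay between 386 and 427 CPM and in basal cells between 266 and 306 CPM. The classes were defined by other genes, so these levels are outside the gates, yet the libraries are the only units and the ranges are given as a description.

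**Figure D1:**
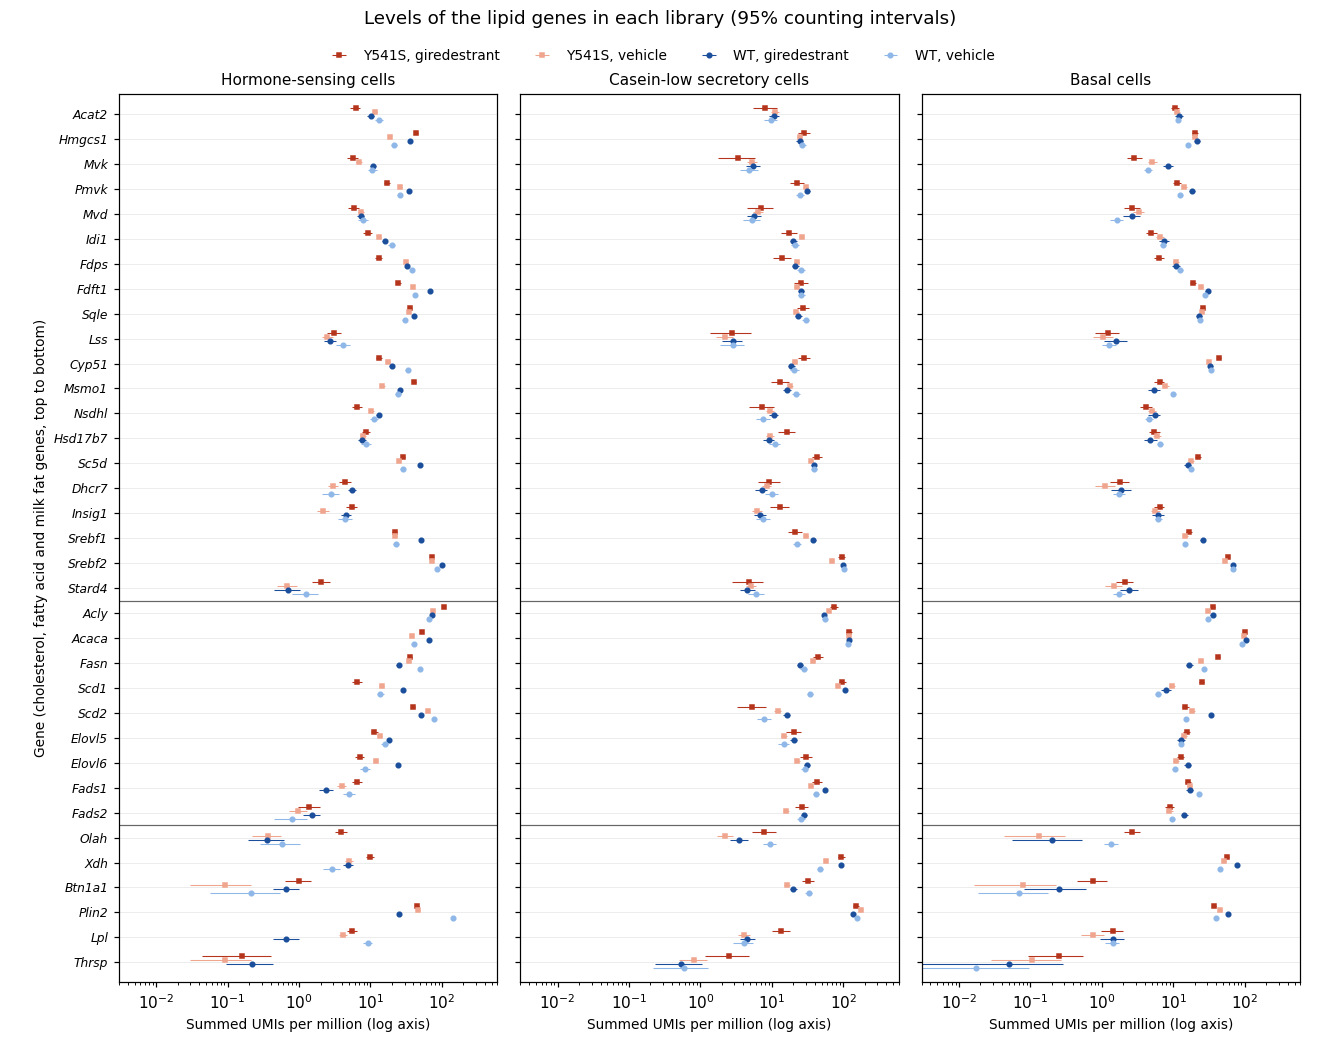
Levels of the 35 genes in CPM (log axis) in hormone-sensing, casein-low secretory and basal cells, with 1 point per library and 95% Poisson intervals; a gene with 0 UMIs in a library is not drawn. Acaca, Fads1 and Fads2 stand higher in casein-low cells than in hormone-sensing and basal cells in all 4 libraries, and 11 genes stand lowest in basal cells.

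In hormone-sensing cells, the cholesterol genes split under giredestrant in Y541S, with some past 1.5-fold in each direction relative to the median gene. In WT most of those past it were lower, relative to a median gene that lay above equal CPM. In plain CPM, Hmgcs1, Fdft1, Sc5d, Dhcr7 and Srebf1 were 1.64 to 2.21 times vehicle in WT. Stard4, Cyp51 and Lss were 0.55 to 0.66 times vehicle there, and Acat2, Idi1, Fdps and Hsd17b7 0.76 to 0.88 times. In Y541S, 7 of 34 measured members were higher and 11 lower with giredestrant, against 25% and 24.8% of all genes. These shares of the members, 20.6% and 32.4%, lay near those of all genes. In WT, 4 of 34 were higher and 13 lower, against 22.2% and 22.1% of all genes, which is 11.8% and 38.2% of the members. The members' median relative log2 ratio was -0.23 in Y541S and -0.32 in WT, where the median over all genes is 0 by construction. Thrsp was not measured (under 20 UMIs over the pair of libraries).

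**Figure D2:**
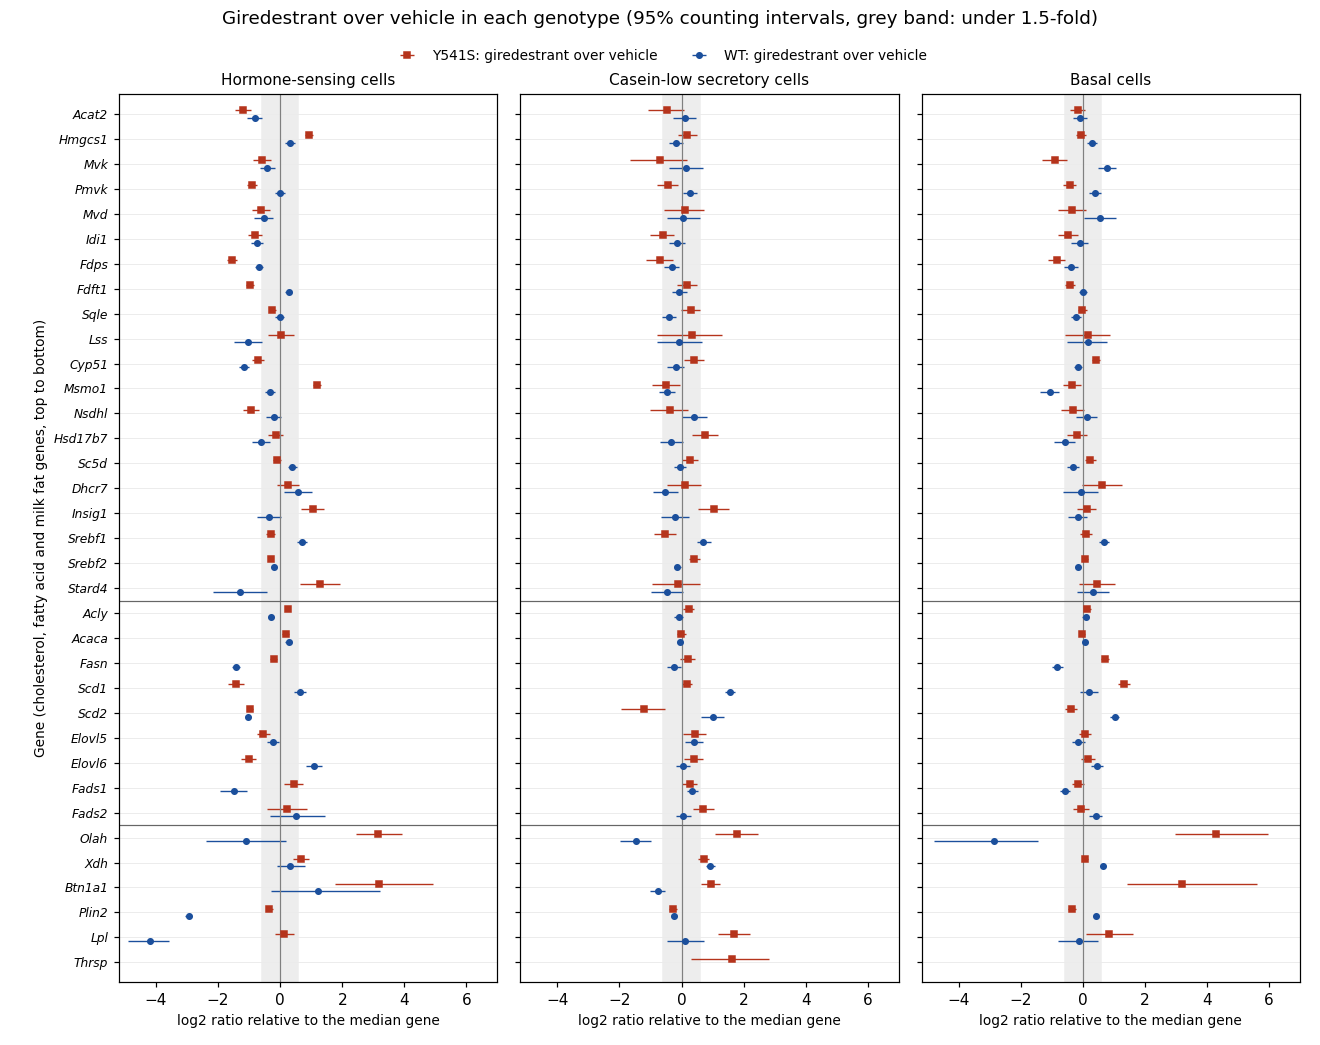
Relative log2 ratio of giredestrant over vehicle for each gene in Y541S and in WT, in hormone-sensing, casein-low secretory and basal cells, with 95% binomial intervals and a grey band for ratios under 1.5-fold; genes under 20 UMIs are not drawn. In hormone-sensing cells Stard4, Scd1, Elovl6 and Olah lie past 1.5-fold on opposite sides in the genotypes.

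The mevalonate arm was lower with giredestrant for 5 of 7 enzymes in Y541S and 3 of 7 in WT, with 1 of 7 higher in Y541S and 0 of 7 in WT. Among all genes 24.8% were lower and 25% higher in Y541S, and 22.1% and 22.2% in WT. Fdps, which makes farnesyl diphosphate, was at 13.1 CPM with giredestrant and 31.5 CPM with vehicle in Y541S, and 32.5 CPM with giredestrant and 38.5 CPM with vehicle in WT. Its relative log2 ratio was -1.55 (-1.72 to -1.38) in Y541S and -0.68 (-0.82 to -0.55) in WT, and the library of Y541S with giredestrant was the lowest of the 4. Acat2, the acetoacetyl-CoA thiolase at the start of the pathway, was at 6.19 CPM with giredestrant and 11.6 CPM with vehicle in Y541S, and 10.03 CPM with giredestrant and 13.1 CPM with vehicle in WT. Acat2 had ratios of -1.19 (-1.45 to -0.93) in Y541S and -0.82 (-1.06 to -0.59) in WT. Pmvk, a mevalonate pathway kinase, was at 16.9 CPM with giredestrant and 26.2 CPM with vehicle in Y541S, and 34.6 CPM with giredestrant and 25.7 CPM with vehicle in WT. Pmvk was lower in Y541S at -0.91 (-1.07 to -0.76). Each of these 3 enzymes was lowest in Y541S given giredestrant. Idi1 was at 9.14 CPM with giredestrant and 13.2 CPM with vehicle in Y541S, and 15.9 CPM with giredestrant and 19.8 CPM with vehicle in WT. Over the whole class Idi1 was lower in both genotypes at -0.81 (-1.03 to -0.59) in Y541S and -0.76 (-0.95 to -0.57) in WT. Mvd, the decarboxylase of this arm, was lower in Y541S at -0.62 (-0.90 to -0.34), close to the 1.5-fold line.

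Hmgcs1 ran against these enzymes. The synthase of HMG-CoA, it was at 43.2 CPM with giredestrant and 18.5 CPM with vehicle in Y541S, and 35.8 CPM with giredestrant and 21.4 CPM with vehicle in WT. Hmgcs1 was higher in Y541S at 0.94 (0.82 to 1.06), with a ratio of 0.31 (0.15 to 0.47) in WT. Mvk, the other kinase of the arm, was at 5.63 CPM with giredestrant and 6.93 CPM with vehicle in Y541S, and 10.9 CPM with giredestrant and 10.7 CPM with vehicle in WT, and WT was above Y541S under both treatments.

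Enzymes of the sterol arm from squalene to cholesterol also passed 1.5-fold in each direction in Y541S, where 25% of all genes were higher and 24.8% lower. Msmo1 was at 40.7 CPM with giredestrant and 14.7 CPM with vehicle in Y541S, and 26.3 CPM with giredestrant and 24.6 CPM with vehicle in WT. Msmo1 was higher with giredestrant in Y541S at 1.19 (1.06 to 1.32), with a ratio of -0.33 (-0.50 to -0.17) in WT. The 3 sterol enzymes lower in Y541S were squalene synthase (Fdft1), Nsdhl, which works beside MSMO1 in sterol demethylation, and lanosterol demethylase (Cyp51). Fdft1 was at 24.4 CPM with giredestrant and 39.2 CPM with vehicle in Y541S, and 68.9 CPM with giredestrant and 42.0 CPM with vehicle in WT. Fdft1 had a ratio of -0.97 (-1.10 to -0.84) in Y541S. Nsdhl was at 6.50 CPM with giredestrant and 10.3 CPM with vehicle in Y541S, and 13.0 CPM with giredestrant and 11.2 CPM with vehicle in WT. Nsdhl had a ratio of -0.95 (-1.21 to -0.69). In both, Y541S with giredestrant was the lowest library. Cyp51 was at 13.2 CPM with giredestrant and 17.7 CPM with vehicle in Y541S, and 19.8 CPM with giredestrant and 33.0 CPM with vehicle in WT. Over the whole class Cyp51 was lower in both genotypes at -0.71 (-0.89 to -0.53) in Y541S and -1.17 (-1.33 to -1.02) in WT. Lanosterol synthase (Lss) was at 3.11 CPM with giredestrant and 2.50 CPM with vehicle in Y541S, and 2.72 CPM with giredestrant and 4.14 CPM with vehicle in WT. Lss was lower in WT at -1.04 (-1.48 to -0.60), with WT given vehicle as the high library. Of the remaining sterol enzymes, Hsd17b7 was lower in WT at -0.62 (-0.90 to -0.33), and Sqle, Sc5d and Dhcr7 stayed inside 1.5-fold in both genotypes.

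Among the regulators, Insig1 and the sterol carrier Stard4 were higher with giredestrant in Y541S. Insig1 was at 5.47 CPM with giredestrant and 2.18 CPM with vehicle in Y541S, and 4.600 CPM with giredestrant and 4.40 CPM with vehicle in WT. Insig1 had a ratio of 1.05 (0.68 to 1.41) in Y541S and -0.37 (-0.76 to 0.03) in WT, with Y541S given vehicle as the low library. Stard4 was at 2.04 CPM with giredestrant and 0.689 CPM with vehicle in Y541S, and 0.693 CPM with giredestrant and 1.26 CPM with vehicle in WT. Stard4 was higher in Y541S at 1.28 (0.65 to 1.93) and lower in WT at -1.29 (-2.16 to -0.42). Srebf1 was at 21.9 CPM with giredestrant and 22.3 CPM with vehicle in Y541S, and 51.0 CPM with giredestrant and 23.1 CPM with vehicle in WT. Srebf1 was higher in WT at 0.71 (0.56 to 0.86) and inside 1.5-fold in Y541S at -0.31. Srebf2 stayed inside 1.5-fold in both, at -0.31 in Y541S and -0.19 in WT. Of Hmgcs1, Msmo1, Insig1 and Stard4, the 4 cholesterol genes higher in Y541S, all but Stard4 were searched for the sterol regulatory element. It matched in Hmgcs1 only. Across the 25 members searched it matched no other gene, so a missing match does not set Msmo1 or Insig1 apart. SREBP binding was not tested.

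Of the fatty acid genes, 3 of 9 were lower with giredestrant and 0 of 9 higher in Y541S, and 3 were lower and 2 higher in WT. The shares of all genes were 24.8% lower and 25% higher in Y541S, and 22.1% and 22.2% in WT. Scd1 was at 6.46 CPM with giredestrant and 14.3 CPM with vehicle in Y541S, and 29.0 CPM with giredestrant and 13.8 CPM with vehicle in WT. Scd1 was lower in Y541S at -1.43 (-1.68 to -1.18) and higher in WT at 0.63 (0.44 to 0.83). Elovl6, which lengthens palmitate to stearate, was at 7.10 CPM with giredestrant and 11.8 CPM with vehicle in Y541S, and 24.4 CPM with giredestrant and 8.48 CPM with vehicle in WT. Elovl6 was lower in Y541S at -1.01 (-1.26 to -0.77) and higher in WT at 1.09 (0.85 to 1.34). For both genes the levels with vehicle were closer to each other than the levels with giredestrant. Scd2 was at 39.4 CPM with giredestrant and 64.1 CPM with vehicle in Y541S, and 51.9 CPM with giredestrant and 78.8 CPM with vehicle in WT. Scd2 was lower in both genotypes at -0.98 (-1.08 to -0.88) in Y541S and -1.04 (-1.14 to -0.94) in WT. Fatty acid synthase (Fasn), which builds the chain, was at 36.0 CPM with giredestrant and 34.4 CPM with vehicle in Y541S, and 24.7 CPM with giredestrant and 49.0 CPM with vehicle in WT. Fasn was lower in WT at -1.42 (-1.56 to -1.29). Fads1 was at 6.46 CPM with giredestrant and 3.94 CPM with vehicle in Y541S, and 2.41 CPM with giredestrant and 5.03 CPM with vehicle in WT. Fads1 was lower in WT at -1.49 (-1.93 to -1.06). Acly, Acaca, Elovl5 and Fads2 stayed inside 1.5-fold in both genotypes.

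Of the milk fat genes of hormone-sensing cells, 3 of 5 were higher and 0 lower with giredestrant in Y541S, and 1 was higher and 3 lower in WT. Plin2 and Lpl were lower in WT only, and Xdh was higher in Y541S only. Btn1a1 was counted as higher in both genotypes. It rested on 25 UMIs with giredestrant and 5 with vehicle in Y541S, and on 24 and 4 in WT. Only Olah lay on opposite sides, and its WT ratio, from 13 UMIs with giredestrant and 11 with vehicle, had an interval that spans 0. Perilipin-2 (Plin2), which coats lipid droplets, was at 44.7 CPM with giredestrant and 46.8 CPM with vehicle in Y541S, and 25.1 CPM with giredestrant and 143 CPM with vehicle in WT. Its ratio was -0.35 (-0.45 to -0.25) in Y541S and -2.94 (-3.05 to -2.84) in WT, and WT given vehicle was the single high library. Lpl, which releases fatty acids from circulating triglycerides, was at 5.51 CPM with giredestrant and 4.13 CPM with vehicle in Y541S, and 0.665 CPM with giredestrant and 9.11 CPM with vehicle in WT. Lpl was lower in WT at -4.21 (-4.89 to -3.59), with a ratio of 0.13 (-0.18 to 0.44) in Y541S. For both genes WT given vehicle was the highest of the 4 libraries and WT given giredestrant the lowest.

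Olah was at 3.91 CPM with giredestrant and 0.363 CPM with vehicle in Y541S, and 0.360 CPM with giredestrant and 0.576 CPM with vehicle in WT. Olah was higher in Y541S at 3.15 (2.45 to 3.92) and lower in WT at -1.11 (-2.39 to 0.19), where the interval spans 0 and counting every cell that meets the gate gave 0.036. Btn1a1 was at 0.998 CPM with giredestrant and 0.0907 CPM with vehicle in Y541S, and 0.665 CPM with giredestrant and 0.209 CPM with vehicle in WT. Btn1a1 was higher in Y541S at 3.18 (1.77 to 4.92), and in WT at 1.23 (-0.31 to 3.22) with an interval that spans 0. Xdh was at 9.74 CPM with giredestrant and 5.005 CPM with vehicle in Y541S, and 4.88 CPM with giredestrant and 2.88 CPM with vehicle in WT. Xdh was higher in Y541S at 0.68 (0.43 to 0.93). Olah and Btn1a1 stood highest in the library that also held the casein-high cells, and Btn1a1 passed the minimum of 20 UMIs in each genotype only through the library with giredestrant. In the hormone-sensing class of that library the 3 casein genes summed to 59.1 CPM, against 9.23 CPM in Y541S with vehicle, 0.0554 CPM in WT with giredestrant and 11.5 CPM in WT with vehicle.

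The calls differed in how far they held. With the minimum of 20 UMIs, 13 of the 18 calls in Y541S stayed past 1.5-fold the same way under every alternative at that fold. Those that did not were Cyp51, Fdft1, Idi1, Mvd and Xdh. In WT, 8 of 17 stayed, namely Cyp51, Elovl6, Fasn, Lpl, Lss, Plin2, Scd2 and Srebf1. An alternative minimum of 200 UMIs over the pair is left out of these counts. Btn1a1, Olah and Stard4 in Y541S, and Lpl and Lss in WT, lay under it. Counting every cell that meets the hormone-sensing gate, also those that meet another gate, took the WT ratio of Fads1 to -0.27 and that of Stard4 to -0.44, and ended those of Olah and Btn1a1 too. Past 1.5-fold on opposite sides in Y541S and WT lay 4 of 34 members (Olah, Stard4, Scd1 and Elovl6), against 9.08% of all genes.

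Other lipid genes in the same cell class also passed 1.5-fold in both directions. Of 19 further sterol genes measured, 3 were higher and 7 lower with giredestrant in Y541S, and 3 higher and 6 lower in WT. Among all genes 25% were higher and 24.8% lower in Y541S, and 22.2% and 22.1% in WT, as a measure for this and the next 3 lists. Ebp, the sterol isomerase, was at 38.7 CPM with giredestrant and 142 CPM with vehicle in Y541S, and 79.7 CPM with giredestrant and 156 CPM with vehicle in WT. Ebp had a ratio of -2.16 (-2.25 to -2.06) in Y541S. Ebp was lower in the same class, summed over its cells, in which Hmgcs1 and Msmo1 were higher.

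Of 21 further fatty acid and triglyceride genes, 1 was higher and 5 lower with giredestrant in Y541S, and 5 were higher and 8 lower in WT. Acsl3, which activates long-chain fatty acids, was at 86.5 CPM with giredestrant and 89.1 CPM with vehicle in Y541S, and 37.0 CPM with giredestrant and 168 CPM with vehicle in WT. Acsl3 had a ratio of -2.62 (-2.71 to -2.52) in WT. The further milk fat genes numbered 1 higher and 2 lower of 9 in Y541S, and 1 higher and 4 lower of 8 in WT, with Mfge8, a protein of the milk fat globule membrane, at 108 CPM with giredestrant and 118 CPM with vehicle in Y541S, and 31.7 CPM with giredestrant and 150.2 CPM with vehicle in WT. Of 12 fatty acid oxidation genes, 4 were higher and 2 lower in Y541S, and 2 higher and 6 lower in WT. Pdk4, the kinase that restrains pyruvate oxidation, was at 144 CPM with giredestrant and 46.2 CPM with vehicle in Y541S, and 5.54 CPM with giredestrant and 77.9 CPM with vehicle in WT. Pdk4 was higher in Y541S at 1.37 (1.29 to 1.44) and lower in WT at -4.25 (-4.47 to -4.03). WT given vehicle was the highest library for Acsl3 and Mfge8, as for Plin2 and Lpl, and Y541S given giredestrant was the highest for Pdk4.

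Set against WT, Y541S hormone-sensing cells given vehicle had 1 of 33 measured members higher and 11 lower, against 11.6% and 11.6% of all genes, and the lower ones made 33.3% of the members. Plin2 (relative log2 ratio -1.73, interval -1.81 to -1.65), Lpl (-1.26, interval -1.55 to -0.97), Insig1 (-1.14, interval -1.55 to -0.72), Cyp51 (-1.02, interval -1.17 to -0.87) and Stard4 (-0.99, interval -1.76 to -0.19) were furthest below. Msmo1 (-0.86), Lss (-0.85), Olah (-0.79), Mvk (-0.75), Idi1 (-0.71) and Fasn (-0.63) were also lower, and Xdh was higher at 0.68 (0.25 to 1.12). Of these 11, 7 are cholesterol genes. With the minimum of 20 UMIs, 8 of the 12 calls stayed past 1.5-fold the same way under every alternative at that fold. Those that did not were Fasn, Idi1, Olah and Xdh.

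With giredestrant, 10 of 34 members were higher in Y541S than in WT and 12 lower, against 25.8% and 24.6% of all genes. All 5 measured milk fat genes were among the higher ones, with Olah at 3.49 (2.65 to 4.45), Lpl at 3.10 (2.46 to 3.79), Xdh at 1.04 (0.76 to 1.33), Plin2 at 0.88 and Btn1a1 at 0.63. Stard4 (1.60, interval 0.88 to 2.35), Fads1 (1.47, interval 1.09 to 1.86), Msmo1 (0.68), Acly (0.63) and Fasn (0.59) were the others. The lower ones were led by Scd1 (-2.12, interval -2.37 to -1.88), Elovl6 (-1.73, interval -1.97 to -1.498), Fdft1 (-1.45, interval -1.58 to -1.32), Fdps (-1.26, interval -1.44 to -1.08) and Srebf1 (-1.17, interval -1.31 to -1.03), followed by Pmvk, Nsdhl, Mvk, Sc5d, Idi1, Acat2 and Elovl5 at -0.99 to -0.64. Of the 22 calls, 10 stayed past 1.5-fold under every alternative at that fold with the minimum of 20 UMIs. Counting every cell that meets the gate ended those of Fads1, Xdh, Plin2 and Btn1a1. Olah rested on 98 UMIs in Y541S and 13 in WT, and passed that minimum only through Y541S.

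Hormone-sensing cells of Y541S given giredestrant differed among themselves in basal keratins. Basal check genes (Krt5, Krt14, Trp63, Oxtr and Cnn1) summed to 906 CPM in them, against 21.1 to 40.5 CPM in the hormone-sensing cells of the other 3 libraries, and Krt14 was at 787 CPM. At 10 UMIs per 10000 of Krt5, Krt14 and Krt6a together, 1288 of these 2479 cells were keratin-high and 1191 keratin-low, and 103 lay within 20% of the cut. In the other libraries 90 of 2096, 3 of 1043 and 69 of 642 cells were keratin-high, in Y541S with vehicle, WT with giredestrant and WT with vehicle. The cut was chosen after the keratin levels had been seen, and both sides come from the same library.

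Most lipid genes were lower in keratin-high than in keratin-low cells of Y541S given giredestrant. Of 34 measured members 21 were lower and 2 higher, against 22% and 23.7% of all genes, so the lower ones made 61.8% of the members. They included 15 of the 20 cholesterol genes. Stard4 was at 0.571 CPM in keratin-high cells and 3.44 CPM in keratin-low cells, a relative log2 ratio of -2.29 (-3.69 to -1.13). Idi1 was at 3.75 CPM in keratin-high cells and 14.3 CPM in keratin-low cells (-1.63, interval -2.13 to -1.16) and Insig1 at 2.28 CPM in keratin-high cells and 8.52 CPM in keratin-low cells (-1.60, interval -2.25 to -0.99). Fdps was at 6.03 CPM in keratin-high cells and 19.8 CPM in keratin-low cells (-1.42, interval -1.81 to -1.04) and Fdft1 at 12.3 CPM in keratin-high cells and 35.9 CPM in keratin-low cells (-1.246, interval -1.52 to -0.98). Both the retention protein Insig1 and the enzymes were thus lower on the same side.

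Hmgcs1, Sqle, Hsd17b7 and Dhcr7 stayed inside 1.5-fold. Msmo1 was the only cholesterol gene that was higher, at 50.6 CPM in keratin-high cells and 31.3 CPM in keratin-low cells (0.99, interval 0.81 to 1.18). Olah was at 0.245 CPM in keratin-high cells and 7.42 CPM in keratin-low cells, 3 UMIs against 95, a ratio of -4.62 (-6.93 to -3.03). Btn1a1 was at 0.326 CPM in keratin-high cells and 1.64 CPM in keratin-low cells, 4 UMIs against 21 (-2.03, interval -4.03 to -0.46). Both, and Stard4 with 7 UMIs against 44, passed the minimum of 20 UMIs only through the keratin-low cells. They are among the lower members counted above. Lpl was at 6.69 CPM in keratin-high cells and 4.38 CPM in keratin-low cells (0.91, interval 0.40 to 1.43), the other member that was higher, and Thrsp was not measured. The high Olah of hormone-sensing cells in this library lay in its keratin-low cells. Set against the keratin-low cells of Y541S with vehicle, the keratin-low cells with giredestrant had 7 of 34 members higher and 7 lower, against 22.5% and 24.8% of all genes. The higher ones were Hmgcs1 (1.02), Msmo1 (0.73), Insig1 (1.58), Stard4 (1.89), Olah (3.93), Xdh (0.74) and Btn1a1 (3.75). Btn1a1 passed the minimum of 20 UMIs only through giredestrant, with 21 UMIs against 5. The lower ones were Acat2 (-0.84), Pmvk (-0.62), Fdps (-1.05), Nsdhl (-0.67), Scd1 (-1.06), Scd2 (-0.59) and Elovl6 (-1.12). Fdft1 (-0.50), Cyp51 (-0.34), Idi1 (-0.26) and Mvd (-0.21), lower over the whole class, stayed inside 1.5-fold in keratin-low cells.

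**Figure D3:**
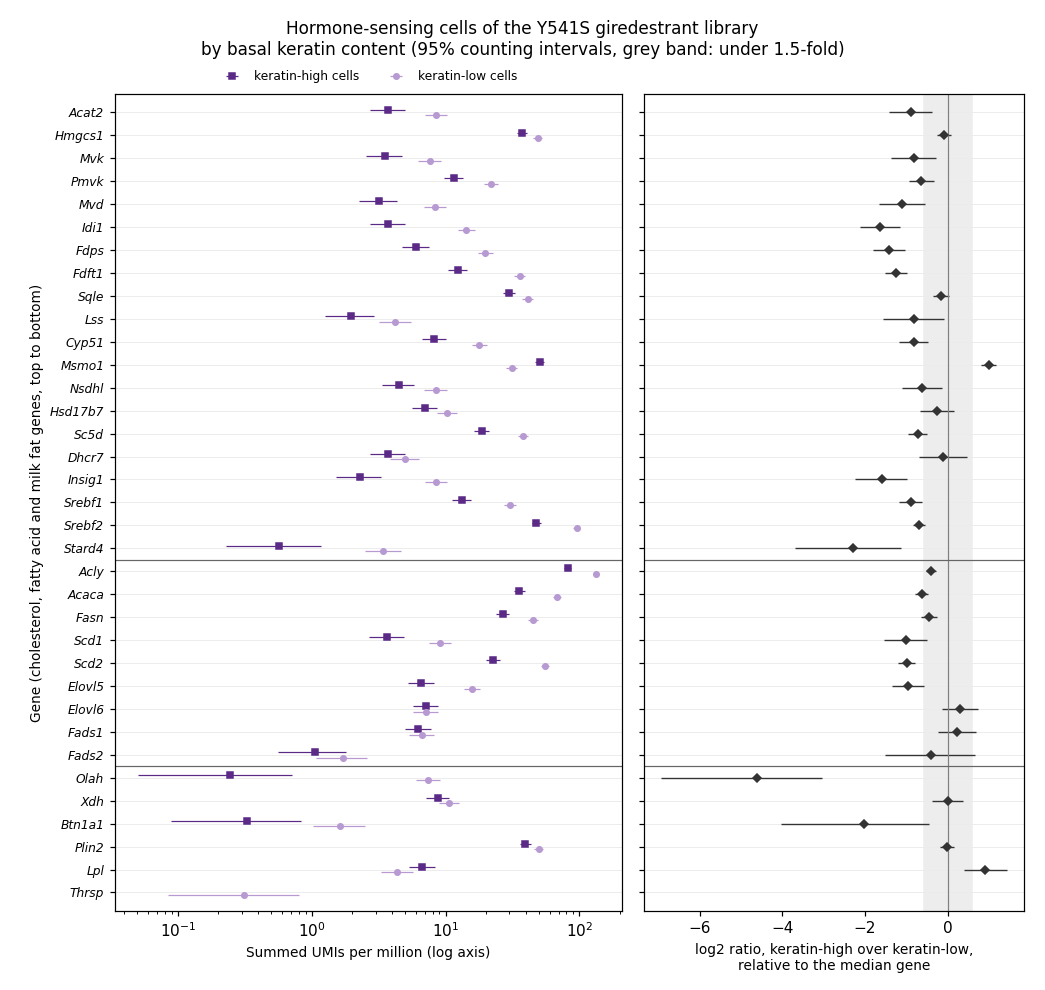
Levels in CPM (left, log axis) of each gene in keratin-high and keratin-low hormone-sensing cells of Y541S with giredestrant, and the relative log2 ratio of keratin-high over keratin-low cells (right), with 95% intervals and a grey band for ratios under 1.5-fold; a level at 0 UMIs and a ratio under 20 UMIs are not drawn. Of 34 genes 21 lie below the band, and Msmo1 and Lpl lie above it.

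The same cut in the vehicle libraries, where few cells were keratin-high, did not give this pattern. In Y541S with vehicle 3 of 33 members were higher and 7 lower in keratin-high cells, against 15.6% and 16.6% of all genes. In WT with vehicle 7 of 31 were higher and 3 lower, against 10.8% and 16% of all genes, from 69 keratin-high cells.

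In casein-low secretory cells most milk fat genes were higher with giredestrant in Y541S, while the summed level of the 20 cholesterol genes lay between 386 and 427 CPM over the 4 libraries. In Y541S, 8 of 35 members were higher and 4 lower with giredestrant, against 17.2% and 21.4% of all genes (22.9% and 11.4% of the members). In WT, 4 of 34 were higher and 2 lower, against 9.56% and 10.6%. Of the 6 milk fat genes 5 were higher in Y541S, all but Plin2, and their median relative log2 ratio was 1.29.

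Olah was at 7.84 CPM with giredestrant and 2.23 CPM with vehicle in Y541S, and 3.49 CPM with giredestrant and 9.32 CPM with vehicle in WT. Olah was higher in Y541S at 1.79 (1.09 to 2.47) and lower in WT at -1.48 (-1.99 to -0.97). Btn1a1 was at 31.9 CPM with giredestrant and 16.3 CPM with vehicle in Y541S, and 19.98 CPM with giredestrant and 32.8 CPM with vehicle in WT. Btn1a1 had a ratio of 0.95 (0.64 to 1.254) in Y541S and -0.77 (-1.005 to -0.55) in WT. For both genes, and for Scd2, Y541S and WT lay past 1.5-fold on opposite sides, 3 of 34 members against 6.47% of all genes, and Y541S given vehicle held the lowest Btn1a1 level of the 4 libraries. Lpl was at 13.4 CPM with giredestrant and 4.08 CPM with vehicle in Y541S, and 4.56 CPM with giredestrant and 4.02 CPM with vehicle in WT. Lpl had a ratio of 1.70 (1.18 to 2.21) in Y541S. Thrsp was at 2.52 CPM with giredestrant and 0.808 CPM with vehicle in Y541S, and 0.536 CPM with giredestrant and 0.588 CPM with vehicle in WT. Thrsp had a ratio of 1.62 (0.31 to 2.81). Xdh was at 94.1 CPM with giredestrant and 56.6 CPM with vehicle in Y541S, and 94.4 CPM with giredestrant and 47.7 CPM with vehicle in WT. Xdh was higher in both genotypes at 0.72 (0.54 to 0.89) in Y541S and 0.93 (0.78 to 1.08) in WT. Casein genes differed between the libraries too. Even below the cut they summed to 726 CPM with giredestrant and 81.4 CPM with vehicle in Y541S. In WT they summed to 5.57 CPM with giredestrant and 51.9 CPM with vehicle. Olah and Btn1a1 were also lower with giredestrant in WT, but Xdh was higher. With vehicle, Y541S held more casein than WT but less Olah and Btn1a1. The part of casein in the milk fat values was not tested.

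Outside milk fat, Scd2 was at 5.32 CPM with giredestrant and 12.1 CPM with vehicle in Y541S, and 16.1 CPM with giredestrant and 7.75 CPM with vehicle in WT. Scd2 was lower in Y541S at -1.20 (-1.95 to -0.54) and higher in WT at 0.997 (0.62 to 1.38). Scd1 was at 97.5 CPM with giredestrant and 85.0 CPM with vehicle in Y541S, and 106 CPM with giredestrant and 34.3 CPM with vehicle in WT. Scd1 was higher in WT at 1.57 (1.40 to 1.74), where WT given vehicle was the low library, and inside 1.5-fold in Y541S at 0.18. Insig1 was at 12.9 CPM with giredestrant and 6.196 CPM with vehicle in Y541S, and 6.84 CPM with giredestrant and 7.65 CPM with vehicle in WT. Insig1 was higher in Y541S at 1.04 (0.53 to 1.52). Srebf1 was at 21.3 CPM with giredestrant and 30.2 CPM with vehicle in Y541S, and 38.3 CPM with giredestrant and 22.6 CPM with vehicle in WT. Srebf1 was higher in WT at 0.71 (0.48 to 0.93). Hsd17b7 (0.77) and Fads2 (0.71) were also higher in Y541S, and Fdps (-0.69), Mvk (-0.68) and Idi1 (-0.60) lower, all close to the 1.5-fold line. With the minimum of 20 UMIs, 6 of 12 calls in Y541S stayed past 1.5-fold under every alternative at that fold. These were Btn1a1, Insig1, Lpl, Olah, Scd2 and Thrsp. In WT 4 of the 6 did, all but Olah and Srebf1. Lpl, Olah and Thrsp in Y541S lay under the alternative minimum of 200 UMIs.

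Between genotypes, casein-low cells given vehicle had 2 of 35 members higher in Y541S and 3 lower, against 6.61% and 11.5% of all genes. Scd1 (1.34, interval 1.17 to 1.502) and Scd2 (0.67) were higher, and Olah (-2.03, interval -2.53 to -1.55), Btn1a1 (-0.99) and Fads2 (-0.66) lower. With giredestrant 7 of 34 were higher and 3 lower, against 17% and 21.1%. Lpl (1.64, interval 1.08 to 2.20), Olah (1.253, interval 0.54 to 1.94), Insig1 (0.997), Hsd17b7 (0.93), Fasn (0.91), Btn1a1 (0.76) and Cyp51 (0.67) were higher, and Scd2 (-1.51, interval -2.27 to -0.84), Srebf1 (-0.76) and Mvk (-0.63) lower. Olah was thus below WT with vehicle and above it with giredestrant, and leaving out cells with a UMI of Mki67 or Top2a took the second ratio to -0.12.

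Among the further genes in casein-low cells, sterol genes numbered 6 higher and 2 lower of 19 with giredestrant in Y541S, and 2 higher and 3 lower of 19 in WT. Among all genes 17.2% were higher and 21.4% lower in Y541S, and 9.56% and 10.6% in WT. The further fatty acid genes numbered 3 higher and 3 lower of 21 in Y541S and 1 higher and 2 lower of 21 in WT. Dgat2, which completes triglycerides, was at 7.28 CPM with giredestrant and 1.73 CPM with vehicle in Y541S, and 4.16 CPM with giredestrant and 4.90 CPM with vehicle in WT. Dgat2 had a ratio of 2.05 (1.30 to 2.78) in Y541S, while Gpam, which begins them, was lower there at -2.24 (-5.32 to -0.33), from 2 UMIs with giredestrant and 68 with vehicle. The further milk fat genes numbered 1 higher and 1 lower of 8 in Y541S and 4 higher and 0 lower of 9 in WT, with the fatty acid transporter Cd36 at 0.840 CPM with giredestrant and 0.577 CPM with vehicle in Y541S, and 3.62 CPM with giredestrant and 0.0981 CPM with vehicle in WT. In WT Cd36 rested on 54 UMIs with giredestrant and 1 with vehicle. The oxidation genes numbered 3 higher and 0 lower of 12 in Y541S and 1 higher and 3 lower of 12 in WT. Pdk4 was at 163 CPM with giredestrant and 33.0 CPM with vehicle in Y541S, and 27.4 CPM with giredestrant and 153 CPM with vehicle in WT, so its giredestrant ratios were 2.29 (2.13 to 2.44) in Y541S and -2.54 (-2.70 to -2.38) in WT.

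Casein-high secretory cells of Y541S given giredestrant were set against casein-low cells of the same library to see which lipid genes differ with casein. All 6 milk fat genes were higher in casein-high cells, and with Scd1 and Hsd17b7 they made 8 of 35 members higher and 0 lower, against 7.97% and 8.43% of all genes, with the higher ones 22.9% of the members. Thrsp was at 17.7 CPM in casein-high cells and 2.52 CPM in casein-low cells, a relative log2 ratio of 2.84 (1.87 to 3.99). Lpl was at 42.8 CPM in casein-high cells and 13.4 CPM in casein-low cells (1.70, interval 1.26 to 2.16), and Btn1a1 at 85.4 CPM in casein-high cells and 31.9 CPM in casein-low cells (1.45, interval 1.16 to 1.74). Olah was at 18.5 CPM in casein-high cells and 7.84 CPM in casein-low cells (1.27, interval 0.68 to 1.90), Plin2 at 350.5 CPM in casein-high cells and 151 CPM in casein-low cells (1.24, interval 1.11 to 1.38) and Xdh at 179.8 CPM in casein-high cells and 94.1 CPM in casein-low cells (0.96, interval 0.79 to 1.14). These members span the milk fat programme from triglyceride uptake to the droplet membrane.

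Scd1 was at 177 CPM in casein-high cells and 97.5 CPM in casein-low cells (0.89, interval 0.72 to 1.06) and Hsd17b7 at 24.8 CPM in casein-high cells and 16.2 CPM in casein-low cells (0.64, interval 0.21 to 1.08). The 20 cholesterol genes summed to 430 CPM in casein-high cells and 408 CPM in casein-low cells, with a median relative log2 ratio of 0.09. The core fatty acid enzymes Fasn (0.33), Acaca (0.03) and Acly (0.48) stayed inside 1.5-fold. Adipocyte markers summed to 4.6 CPM in casein-high cells with 6 of 8 at 0, Adipoq and Plin1 among them. Of the further lists, 4 of 9 milk fat genes were higher and 0 lower, with the fatty acid binding protein Fabp3 at 6.05 CPM in casein-high cells and 0.840 CPM in casein-low cells and Cd36 at 4.11 CPM in casein-high cells and 0.840 CPM in casein-low cells. The further fatty acid genes numbered 3 higher, Gpam furthest at 2.28 (0.25 to 5.41), and 1 lower of 20, the sterol genes 2 higher and 2 lower of 19, and the oxidation genes 1 higher and 0 lower of 12. Gpam (22 UMIs against 2), Cd36 (34 against 3), Fabp3 (50 against 3) and Thrsp (146 against 9) passed the minimum of 20 UMIs only through the casein-high cells.

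The milk fat sum was graded across casein level. In 6 ranges of casein UMIs per 10000 (under 5, 5 to 20, 20 to 50, 50 to 100, 100 to 200, and 200 or more, with 230, 226, 287, 262, 206 and 119 cells), the milk fat genes summed to 257, 341, 453, 623, 863 and 1163 CPM. The fatty acid genes summed to 439.7, 485, 532, 585, 604 and 772 CPM over the same ranges, and the cholesterol genes to 412, 405, 477, 417, 399 and 403 CPM. Plin2 was at 128, 172, 227, 292, 448 and 621 CPM and Thrsp at 2.33, 2.69, 7.52, 8.98, 19.5 and 61.3 CPM, both higher in each range than in the one before. Olah was at 6.998, 8.62, 11.3, 8.20, 33.1 and 34.5 CPM, so most of its increase lay above 100 casein UMIs per 10000. Cells were not cut by milk fat genes, but the ranges come from 1 library and share its cells with the comparison above. The other libraries held too few casein-high cells (11 in Y541S with vehicle, 0 in WT with giredestrant and 5 in WT with vehicle, with a minimum of 50) for the same comparison.

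**Figure D4:**
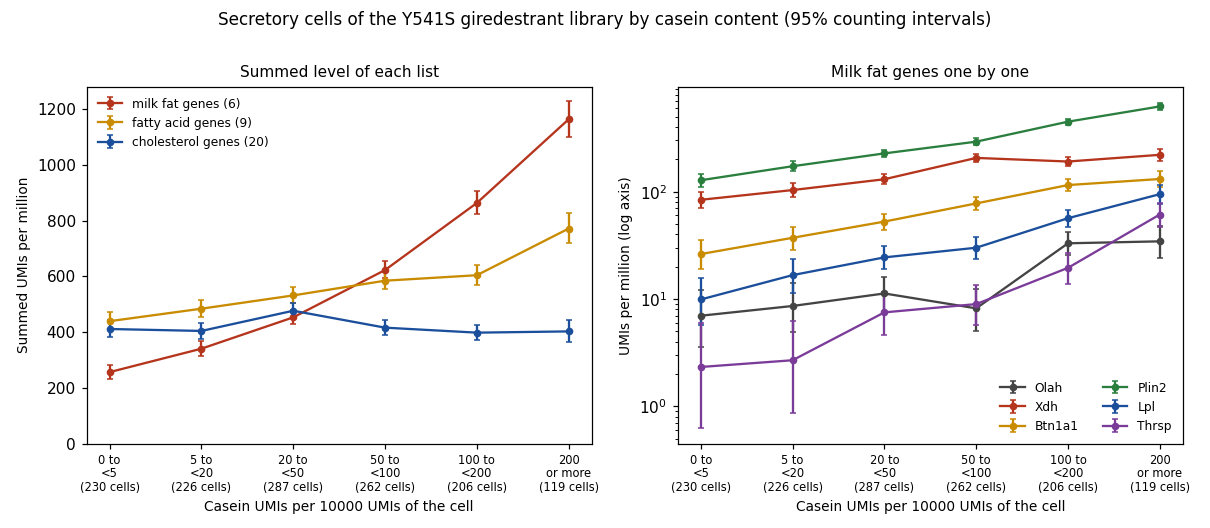
Levels in CPM against casein range (UMIs of Csn1s1, Csn1s2a and Csn2 per 10000) in secretory cells of Y541S with giredestrant, as summed levels of the 3 gene groups and as single milk fat genes with 95% Poisson intervals. The milk fat sum runs from 257 to 1163 CPM while the cholesterol sum stays between 399 and 477 CPM.

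In basal cells the members passed 1.5-fold about as often as all genes. In Y541S, 6 of 34 members were higher and 2 lower with giredestrant, against 14.3% and 12.1% of all genes, and in WT 4 of 33 were higher and 4 lower, against 14.8% and 14.3%. Olah was at 2.65 CPM with giredestrant and 0.130 CPM with vehicle in Y541S, and 0.204 CPM with giredestrant and 1.35 CPM with vehicle in WT. Olah was higher in Y541S at 4.28 (2.98 to 5.95) and lower in WT at -2.88 (-4.79 to -1.46). Btn1a1 was at 0.757 CPM with giredestrant and 0.0782 CPM with vehicle in Y541S, and 0.255 CPM with giredestrant and 0.0690 CPM with vehicle in WT. Btn1a1 had a ratio of 3.205 (1.43 to 5.61) in Y541S. Both passed the minimum of 20 UMIs in Y541S only through the library with giredestrant, with 63 UMIs of Olah and 18 of Btn1a1, against 5 and 3 with vehicle, and both are among the 6 higher members. Olah in WT passed it only through vehicle, with 4 UMIs with giredestrant and 78 with vehicle. In the library of Y541S with giredestrant, basal cells also held 64.2 CPM of casein, against 0.287 CPM in Y541S with vehicle, 0 in WT with giredestrant and 1.43 CPM in WT with vehicle.

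Fasn was at 42.2 CPM with giredestrant and 24.4 CPM with vehicle in Y541S, and 16.9 CPM with giredestrant and 27.0 CPM with vehicle in WT. Fasn was higher in Y541S at 0.72 (0.59 to 0.85) and lower in WT at -0.83 (-1.003 to -0.66). Mvk was at 2.86 CPM with giredestrant and 5.11 CPM with vehicle in Y541S, and 8.56 CPM with giredestrant and 4.45 CPM with vehicle in WT. Mvk was lower in Y541S at -0.91 (-1.33 to -0.50) and higher in WT at 0.79 (0.50 to 1.08). With Olah, 3 of 33 members lay past 1.5-fold on opposite sides in the genotypes, against 6.29% of all genes. Scd1 was at 25.1 CPM with giredestrant and 9.65 CPM with vehicle in Y541S, and 7.84 CPM with giredestrant and 6.12 CPM with vehicle in WT. Scd1 was higher in Y541S at 1.31 (1.12 to 1.503). Scd2 was at 14.8 CPM with giredestrant and 18.5 CPM with vehicle in Y541S, and 33.8 CPM with giredestrant and 15 CPM with vehicle in WT. Scd2 was higher in WT at 1.02 (0.87 to 1.17). The 2 stearoyl-CoA desaturases thus differed in which genotype showed a change. Msmo1 was at 6.43 CPM with giredestrant and 7.80 CPM with vehicle in Y541S, and 5.35 CPM with giredestrant and 10.02 CPM with vehicle in WT. Msmo1 was lower in WT at -1.06 (-1.37 to -0.76). Fdps was at 6.39 CPM with giredestrant and 10.9 CPM with vehicle in Y541S, and 10.9 CPM with giredestrant and 12.7 CPM with vehicle in WT. Fdps was lower in Y541S at -0.84 (-1.12 to -0.57). Lpl was at 1.43 CPM with giredestrant and 0.756 CPM with vehicle in Y541S, and 1.43 CPM with giredestrant and 1.41 CPM with vehicle in WT. Lpl was higher in Y541S at 0.85 (0.09 to 1.62), and at -0.12 with cells weighed equally. The other calls lay close to the 1.5-fold line, Dhcr7 at 0.62 in Y541S and Srebf1 at 0.67, Xdh at 0.66 and Hsd17b7 at -0.59 in WT. Adipocyte markers moved with the library too, at 67.2 CPM with giredestrant and 23.4 CPM with vehicle in Y541S, and 13.2 CPM with giredestrant and 17.7 CPM with vehicle in WT, and their part in Lpl and Scd1 was not tested. With the minimum of 20 UMIs, 6 of 8 calls in Y541S (all but Dhcr7 and Lpl) stayed past 1.5-fold under every alternative at that fold. In WT 7 of the 8 did (all but Hsd17b7). Olah in both genotypes and Btn1a1 in Y541S lay under the alternative minimum of 200 UMIs.

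Between genotypes, 2 of 33 members were higher and 3 lower in Y541S basal cells with vehicle, against 7.41% and 12% of all genes, namely Mvd (1.01, interval 0.62 to 1.41), Scd1 (0.65), Olah (-3.37, interval -5.04 to -2.09), Lpl (-0.91) and Dhcr7 (-0.66). With giredestrant 4 of 34 were higher and 4 lower, against 16.5% and 16.5%. Olah (3.81, interval 2.38 to 5.72), Scd1 (1.78, interval 1.53 to 2.05), Btn1a1 (1.68) and Fasn (1.42, interval 1.24 to 1.61) were higher. Mvk (-1.48, interval -1.91 to -1.06), Scd2 (-1.08), Fdps (-0.67) and Pmvk (-0.61) were lower. Olah rested on 63 UMIs in Y541S and 4 in WT with giredestrant, and on 5 and 78 with vehicle. Btn1a1 rested on 18 and 5 with giredestrant. Olah met the minimum of 20 UMIs only through the library where it was high, and Btn1a1 mostly so. Of the further lists in Y541S basal cells with giredestrant, 2 of 19 sterol genes were higher and 2 lower, 3 of 21 fatty acid genes higher and 1 lower, 3 of 8 milk fat genes higher and 1 lower, and 3 of 12 oxidation genes higher and 1 lower, against 14.3% and 12.1% of all genes. In WT these lists had 3 higher and 3 lower, 5 and 3, 1 and 1, and 4 and 4, against 14.8% and 14.3% of all genes.

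Milk fat UMIs of Y541S with giredestrant were also expressed per casein UMI in each class, as a description. Olah had 1.65 UMIs per 1000 casein UMIs in casein-high cells, 10.8 in casein-low cells, 66.1 in hormone-sensing cells and 41.3 in basal cells. Within the hormone-sensing class it had 6.25 in keratin-high cells and 94.8 in keratin-low cells. Btn1a1 had 7.61 in casein-high cells, 44.0 in casein-low cells, 16.9 in hormone-sensing cells and 11.8 in basal cells. Lpl had 3.82 in casein-high cells, 18.5 in casein-low cells, 93.1 in hormone-sensing cells and 22.3 in basal cells. Thrsp had 1.57 in casein-high cells, 3.47 in casein-low cells, 2.70 in hormone-sensing cells and 3.93 in basal cells. Some of these values rest on under 20 UMIs. Thrsp had 9 UMIs in casein-low cells, 4 in hormone-sensing cells and 6 in basal cells, Btn1a1 18 in basal cells, and Olah 3 in keratin-high cells. The secretory classes were split on the casein UMIs that form the denominator, so the cut itself sets part of the difference between them. The source of the milk fat UMIs in hormone-sensing and basal cells was not tested.

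**Figure D5:**
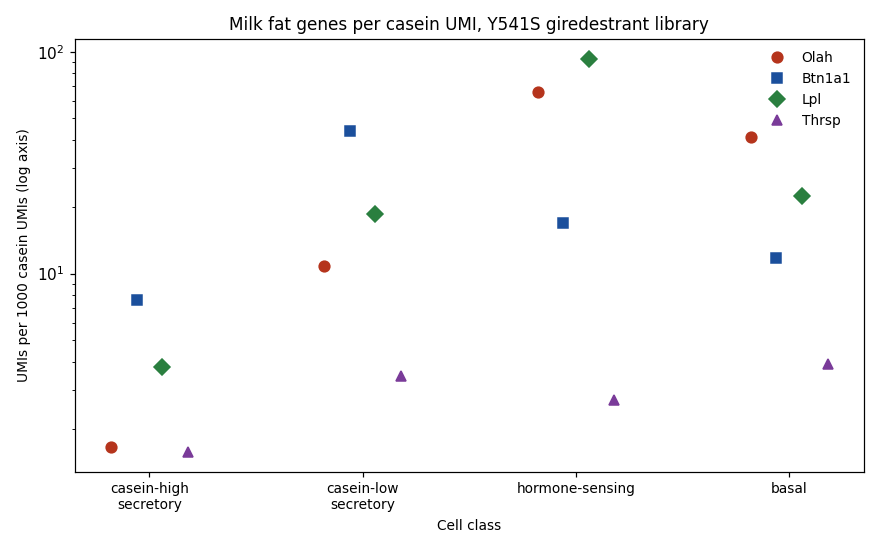
UMIs of Olah, Btn1a1, Lpl and Thrsp per 1000 casein UMIs (log axis) in casein-high secretory, casein-low secretory, hormone-sensing and basal cells of Y541S with giredestrant. Olah is at 66.1 in hormone-sensing cells and 41.3 in basal cells, and at 1.65 in casein-high and 10.8 in casein-low cells, which were split by casein. Thrsp rests on 9, 4 and 6 UMIs in casein-low, hormone-sensing and basal cells, and Btn1a1 on 18 in basal cells.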

How the data were processed

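The values deposited are UMI counts of each gene in each barcode, made with Cell Ranger 6.0.1 per the file headers, on GRCm38 per the submitters' processing notes; the annotation release, intron handling and treatment of reads shared by close paralogs such as Scd1 and Scd2 are not given in the sources used here. The other deposited lists name the barcodes and the genes (identifiers and symbols). Barcodes below 1000 UMIs or 500 genes, or above 15% mitochondrial UMIs, were left out. The members and lists, the gates and several alternatives were chosen with earlier results of these data known. Libraries shared 7 to 23 cell barcodes a pair. Doublets were not removed in the values reported; the alternative removed 1486 cells by Scrublet score (Scanpy 1.11.5).

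UMIs were summed over the cells of each class and library. Levels are CPM (per 1000000 UMIs of the class) with exact Poisson 95% intervals, and ratios have exact conditional binomial 95% intervals (SciPy 1.17.1, NumPy 2.4.6, pandas 2.3.3, Python 3.11.15), tested on simulated data with known folds. Ratios are relative to the median gene with 20 or more UMIs over both libraries, and a gene was called past 1.5-fold. With 1 library per group no test across samples was possible. Levels of 3' UMIs are not compared between genes. Full values were given for up to 12 members a comparison, by size of ratio among those past 1.5-fold, and other members were added after their values were seen to complete each step of a pathway; of each further list, counts and up to 3 members furthest from 0 were given, and some results are not reported here. Motifs were searched as exact letters on both strands of RefSeq promoters (250 bases before to 50 after the start). Alternatives changed the shift (none, genes at 20 or more CPM, TMM in edgeR 4.0.16 under R 4.3.3), gates, casein split, doublets, UMI and mitochondrial filters, cell weighting, cycling cells and the fold. Figures were drawn with matplotlib 3.10.9.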

Additional observations from a re-analysis of the deposited data

Results flagged for a closer look

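For 10 combinations of member and class, giredestrant ratios lay past 1.5-fold on opposite sides in Y541S and WT, and each difference below is the relative log2 ratio in Y541S minus that in WT. In hormone-sensing cells 4 of 34 members (11.8%) did so, against 9.08% of all genes. In casein-low cells 3 of 34 (8.82%) did, against 6.47%, and in basal cells 3 of 33 (9.09%), against 6.29%. With 1 library per group, none of these differences was tested. In hormone-sensing cells the difference was 4.26 for Olah, 2.58 for Stard4, -2.06 for Scd1 and -2.10 for Elovl6. Scd1 and Elovl6 are consecutive users of the same saturated chains, and in both the WT library given giredestrant was the highest of the 4. In casein-low secretory cells it was 3.27 for Olah, 1.73 for Btn1a1 and -2.20 for Scd2, the last resting on 19 UMIs in Y541S with giredestrant. In basal cells it was 7.15 for Olah, 1.55 for Fasn and -1.70 for Mvk, and Olah rested there on 63 UMIs with giredestrant and 5 with vehicle in Y541S, and 4 with giredestrant and 78 with vehicle in WT. Olah, the milk medium-chain thioesterase, was among them in all 3 classes. Of the 10, 4 moved inside 1.5-fold in WT under an alternative at that fold. In hormone-sensing cells these were Stard4 (-0.44 with every cell that meets a gate), Olah (0.036 with the same change, -0.52 with doubled gates) and Scd1 (0.51 without cycling cells, 0.58 in keratin-low cells). In casein-low cells Olah went to -0.51 without cycling cells. The other 6 stayed past 1.5-fold in both genotypes with the minimum of 20 UMIs. Among these, Olah in basal cells lay under the alternative minimum of 200 UMIs.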

How the results depend on the processing

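Of 182 recomputed counts of members past 1.5-fold, 162 stayed within 1.5 times the value reported and 20 did not. No paired analysis was possible because each group has 1 library, and for the same reason no library could be left out. At 2-fold, the counts were 9 (18 at 1.5-fold) for giredestrant in Y541S hormone-sensing cells, 11 (17) in WT ones, 4 (12) for genotype with vehicle and 10 (22) with giredestrant. In casein-low cells they were 5 (12), 2 (6), 2 (5) and 3 (10), in basal cells 3 (8), 3 (8) and 2 (5) for the first 3 comparisons, and 5 (8) between casein-high and casein-low cells. With 200 or more UMIs asked of every gene, an alternative chosen after seeing the data, the counts were 11 for giredestrant in WT hormone-sensing cells, 5 for genotype with giredestrant in casein-low cells, 4 for giredestrant in Y541S basal cells and 2 for genotype with vehicle there. Weighing cells equally gave 13 between casein-high and casein-low cells and 9 for genotype with vehicle in casein-low cells. Leaving secretory cells unsplit, also chosen after seeing the data, gave 16 for genotype with giredestrant, and counting every cell that meets a gate gave 3 for genotype with vehicle in basal cells. Apart from the stated construction, the cause was not tested.

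Of 1950 recomputed ratios of single members, 1806 stayed, 138 moved and 6 changed sign. Btn1a1 in hormone-sensing cells, Y541S over WT with giredestrant, was -0.10 with every cell that meets a gate and -0.48 with doubled gates. Olah in hormone-sensing cells was 0.045 for Y541S over WT with vehicle when cells weighed equally, and 0.036 for giredestrant in WT with every cell that meets a gate. Olah in casein-low cells, Y541S over WT with giredestrant, was -0.12 without cycling cells, and Lpl in basal cells, giredestrant in Y541S, was -0.12 when cells weighed equally. The lower depth of Y541S with giredestrant limits genes of few UMIs, such as Olah, Btn1a1, Lss and Thrsp.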
